A study of Mus musculus with 12 samples.

Results

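The 39 genes described here encode proteins of the lysosome together with the TFE transcription factors that control them. They were set by a list of gene names with no rule on their values, though earlier results of these data were known. All 39 were found among the 15651 genes of the expression table. They comprise 3 transcription factors (*Tfeb*, *Tfe3*, *Mitf*), 4 genes of the proton pump, 8 membrane proteins, 8 cathepsins, 9 glycan hydrolases and 7 other lumenal proteins. Over both genotypes, CCS1477 raised *Tfe3*, *Tfeb* and the calcium channel gene *Mcoln1*, and lowered *Cd63*, *Cd68* and several cathepsins. The lysosomal genes therefore did not move together. Without the mouse as a block, only *Tfe3*, *Cd63* and *Cd68* of these passed in each genotype alone.

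Lysosomes are acidic organelles that break down proteins, glycans and lipids delivered by endocytosis and autophagy. A rotary proton pump, the V-ATPase, acidifies the lumen, cathepsins cut proteins, and glycosidases and lipases release sugars and lipids. TFEB, TFE3 and MITF are basic helix-loop-helix leucine zipper factors that bind E-boxes in the promoters of many of these genes, and mTORC1 at the lysosomal surface holds them in the cytoplasm when nutrients are plentiful. In myeloid cells, lysosomes also share their route of biogenesis with the cytoplasmic granules.

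RNA was sequenced from leukemic spleen cells enriched for the receptor Kit on CD117 beads from 3 moribund *D/F* mice (*Dnmt3a* fl/fl, *Flt3* ITD/ITD, Mx1-Cre) and 3 moribund *T/F* mice (*Tet2* fl/fl, *Flt3* ITD/ITD, Mx1-Cre). The cells of each mouse were divided between DMSO and CCS1477 (inobrodib, an inhibitor of the bromodomains of the acetyltransferases p300 and CBP) for 6 hours in culture with stem cell factor, interleukin 6 and interleukin 3, which gave 4 groups of 3 libraries. CCS1477 was used at 4 µM in *D/F* and 2 µM in *T/F* cells, so genotype and dose cannot be told apart. Mx1-Cre acted by its leaky expression alone, without induction, and 1 or both floxed alleles may be deleted in a cell. All groups carry the *Flt3* duplication, and the ages of these mice are not given in the sources used here.

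Expression is given as transcripts in relative units (TPM), a level scaled for transcript length and for the sum of all transcripts in the library, with no spike-in. A fall in TPM therefore cannot separate fewer cells of a type from less RNA per cell. *Kit* was detected in all 12 libraries, at 50.5 to 149 TPM with DMSO and at 22.8 to 54.9 TPM with CCS1477. The targeted gene *Dnmt3a* overlapped between the genotypes (29.3 to 55.7 TPM in *D/F* with DMSO, and 39.9 to 53.9 TPM in *T/F*), while *Tet2* lay at 30.0 to 35.8 TPM in *T/F* and 38.3 to 43.4 TPM in *D/F*, without overlap (adjusted p = 0.803 from limma). These gene-level values also count exons outside the floxed parts. The mouse called *D/F* replicate 2 stood apart from its group. Its DMSO library was the farthest of the 3 in 59.7% of all genes and in 22 of the 39 lysosomal genes, and its CCS1477 library in 63.1% of all genes and in 30 of the 39.

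The genes were not chosen by their sequence, but TFE factors are known to bind E-boxes in the promoters of many lysosomal genes. The share of E-boxes among them is therefore a description and not an independent result. Promoter windows of 300 bases, from 250 bases before to 50 bases after the start site, were taken from RefSeq (GRCm38.p6) and were available for 34 of the 39 genes, all but *Npc1*, *Ctsb*, *Ctsh*, *Asah1* and *Atp6v1h*. The sequences below are written 5′ to 3′ on the strand of the gene, with the 6-base E-box core CACGTG in capitals. The first 4 lines come from genes that rose with CCS1477, the next 3 from genes with E-boxes that were not called over both genotypes without the mouse as a block, and the last 2 from genes that fell and have no E-box core in the window. Offsets count from the RefSeq start site, whose first transcribed base is 1.

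Mcoln1, chr8:3500336-3500455, plus strand, −183 to −64: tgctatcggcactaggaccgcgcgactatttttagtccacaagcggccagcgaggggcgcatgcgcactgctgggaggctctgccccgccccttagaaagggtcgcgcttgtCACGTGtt
Mcoln1, chr8:3500462-3500491, plus strand, −57 to −28: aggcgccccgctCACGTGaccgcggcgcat
Naglu, chr11:101070009-101070038, plus strand, −85 to −56: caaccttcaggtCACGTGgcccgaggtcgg
Atp6v0d1, chr8:105566062-105566091, minus strand, −27 to 3: ttaagagccaggccctactgcggtCACGTG
Lamp1, chr8:13159041-13159160, plus strand, −120 to −1: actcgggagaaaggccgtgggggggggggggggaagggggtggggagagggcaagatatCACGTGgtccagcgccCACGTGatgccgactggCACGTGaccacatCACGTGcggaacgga
Ctsd, chr7:142387908-142387937, minus strand, −110 to −81: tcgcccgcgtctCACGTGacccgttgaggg
Sgsh, chr11:119355522-119355551, minus strand, −41 to −12: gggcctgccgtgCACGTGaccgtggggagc
Gusb, chr5:130003050-130003169, minus strand, −120 to −1: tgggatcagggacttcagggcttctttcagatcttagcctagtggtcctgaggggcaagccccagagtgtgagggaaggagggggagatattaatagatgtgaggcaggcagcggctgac
Cd68, chr11:69666171-69666290, minus strand, −120 to −1: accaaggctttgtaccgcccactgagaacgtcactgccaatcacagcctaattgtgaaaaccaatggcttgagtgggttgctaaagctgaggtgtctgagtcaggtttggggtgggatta

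Of all 27025 genes with a window, in the expression table or not, 8.09% held the core CACGTG. Among the lysosomal genes it was present in 12 of the 34 windows (35.3%). These genes were *Lamp1*, *Mcoln1*, *Ctsa*, *Ctsd*, *Ctsl*, *Gaa*, *Gla*, *Glb1*, *Naglu*, *Sgsh*, *Atp6v0d1* and *Atp6v1a*, and *Lamp1* held 4 copies, the first of them at -61. The 8-base form TCACGTGA, which contains the core, was present in 6 of 34 windows (*Mcoln1*, *Ctsa*, *Ctsd*, *Gla*, *Atp6v0d1*, *Atp6v1a*; 17.6%), against 1.12% of all genes. The full palindrome of the CLEAR element, which contains both, was present in 0 of the 34 windows and in 0.37% of all genes. Each form reads the same on both strands, and a match is a description of the letters, not of binding.

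**Figure D1:**
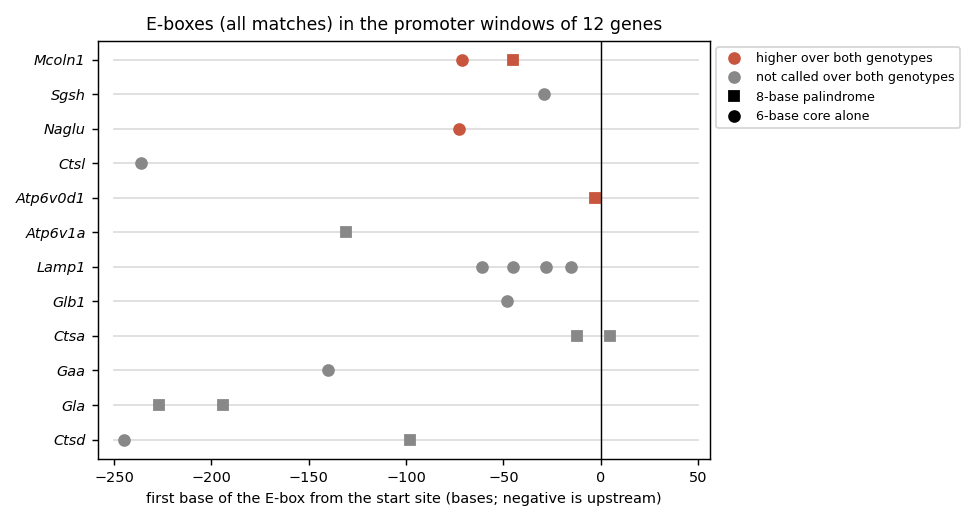
Position of each E-box core (CACGTG) in the promoter windows of the 12 lysosomal genes that hold one. The x axis gives the distance in bases of its first base from the RefSeq start site, squares mark the 8-base form, and colour marks the response to CCS1477 over both genotypes without the mouse as a block. Most matches lie upstream of the start site, and 3 of the 12 genes (*Mcoln1*, *Naglu*, *Atp6v0d1*) were called higher.

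The question of these comparisons was how each gene responded to CCS1477 in *D/F* and in *T/F* cells. The threshold for a call was an adjusted p of 0.05 (limma on log2(TPM + 1), Benjamini-Hochberg over all genes tested), and fold changes are on that log2(TPM + 1) scale. In *T/F*, 11 of the 39 genes were called higher and 5 lower, 41.0% of them, against 25.8% of all genes called higher, 17.6% lower and 43.4% in all. In *D/F*, 1 was called higher and 3 lower, 10.3% of them, against 5.14%, 6.51% and 11.6% of all genes. In a fit of all 12 libraries with a term for genotype, referred to as over both genotypes, 11 were called higher and 8 lower, 48.7% of them, against 25.8%, 19.6% and 45.3%. The share of lysosomal genes called was therefore near that of all genes in each comparison, and the list as a whole did not stand out by its number of calls. Calls above 2-fold were few, with 2 genes in *D/F* (*Tfe3* and *Cd63*, against 7.28% of all genes), 1 in *T/F* (*Sgsh*, against 7.33%) and 1 over both genotypes (*Tfe3*, against 8.8%). In *D/F*, *Ctss* (-1.12), *Gusb* (-1.05) and *Ctsz* (-1.01 on the log2 scale) also changed above 2-fold but were not called.

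Fitting the mouse as a block, since the DMSO and CCS1477 cells come from the same mouse, moved the *D/F* count from 4 to 15 of 39 (7 higher, 8 lower), against 39.3% of all genes called. In *D/F*, 0 genes of the whole table passed without replicate 1 or without replicate 3, while 11 of the 39 passed without replicate 2, against 24.6% of all genes. In *T/F* the blocked count was 23 (54.1% of all genes) and over both genotypes it was 28 (60.3%). Without the block, leaving out 1 *T/F* mouse lowered the share of all genes called in *T/F* from 43.4% to between 20.9% and 33.7%. Rescaling each library to its median gene gave 6 higher and 7 lower in *T/F*, 2 and 2 in *D/F*, and 9 and 11 over both genotypes. Under that scaling the calls over all genes were also nearer to balance, with 20.0% higher and 20.6% lower in *T/F*, 7.04% and 7.72% in *D/F*, and 3598 genes higher and 3423 lower over both genotypes. The 39 genes had a median log2 fold change of 0.21 for *D/F* and 0.15 for *T/F*, beside 0.06 and 0.07 for all genes.

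**Figure D2:**
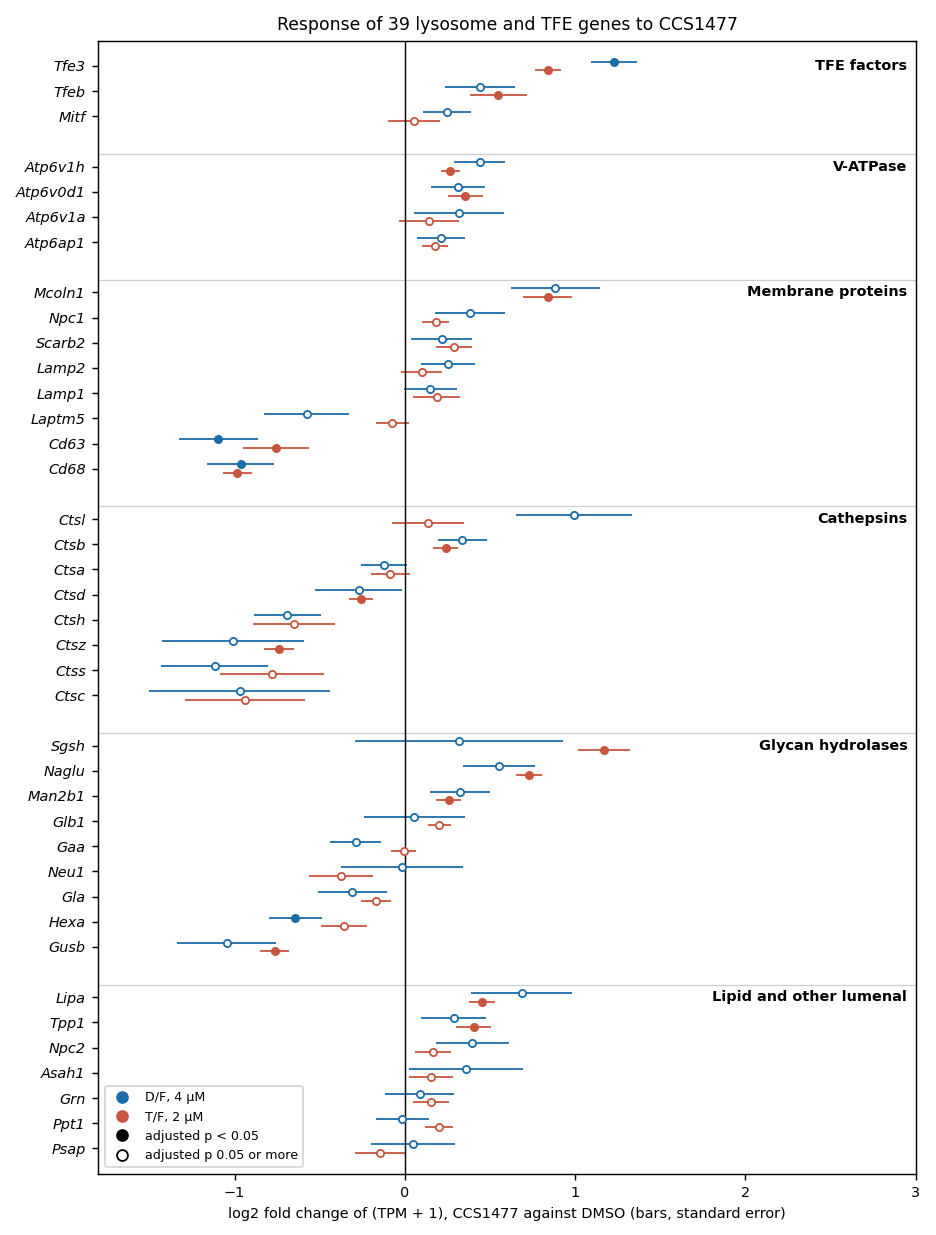
Log2 fold change of (TPM + 1), CCS1477 against DMSO, of the 39 genes by role, in *D/F* (blue, 4 µM) and *T/F* (red, 2 µM). Points are limma estimates from 3 against 3 libraries, bars are standard errors, and filled points passed an adjusted p under 0.05; *Tfe3* and *Mcoln1* lie to the right and *Cd63*, *Cd68*, *Gusb* and 4 cathepsins to the left in both genotypes.

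Of the transcription factors, *Tfe3* (GRCm38, chrX:7762560-7775202), which keeps lysosomal and autophagy genes active under starvation, rose most. In *D/F* it was at 21.3, 24.0 and 22.7 TPM with DMSO and at 52.7, 55.8 and 54.9 TPM with CCS1477. In *T/F* it was at 26.9, 30.6 and 28.6 TPM with DMSO and at 53.3, 54.2 and 49.0 TPM with CCS1477. No DMSO library overlapped a CCS1477 library, and the treated levels of the genotypes lay side by side. The log2 fold change was 1.23 ± 0.14 (SE; adjusted p = 0.00741) in *D/F*, 0.84 ± 0.08 (adjusted p = 0.000906) in *T/F* and 1.04 ± 0.09 (adjusted p = 5.99e-06) over both.

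*Tfeb* (chr17:47737030-47792419), the factor first linked to lysosome biogenesis, rose less and was called in *T/F* and over both genotypes. It was at 24.3, 34.3 and 21.2 TPM with DMSO and at 34.4, 38.7 and 34.2 TPM with CCS1477 in *D/F*, where the groups overlapped by the DMSO library of replicate 2. In *T/F* it was at 30.1, 43.7 and 41.1 TPM with DMSO and at 48.1, 59.0 and 61.2 TPM with CCS1477, without overlap. Its log2 fold change was 0.44 ± 0.21 (adjusted p = 0.211) in *D/F*, 0.55 ± 0.17 (adjusted p = 0.0427) in *T/F* and 0.49 ± 0.13 (adjusted p = 0.00946) over both. The *T/F* call was lost without replicate 2 (adjusted p = 0.13) or replicate 3 (adjusted p = 0.145) and at a pseudocount of 0.1 (adjusted p = 0.0509).

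*Mitf* (chr6:97807052-98021349), the family member known from melanocytes, osteoclasts and mast cells, was the least abundant of the 3. Its levels were 6.33, 6.42 and 6.05 TPM with DMSO and 6.84, 8.25 and 7.81 TPM with CCS1477 in *D/F*, and 6.59, 7.73 and 5.00 TPM against 7.35, 6.53 and 6.09 TPM in *T/F*. The *D/F* groups did not overlap and the *T/F* groups did, and no comparison called it. Over both genotypes the log2 fold change was 0.15 ± 0.10 (adjusted p = 0.241), with a 95% interval from -0.07 to 0.37.

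**Figure D3:**
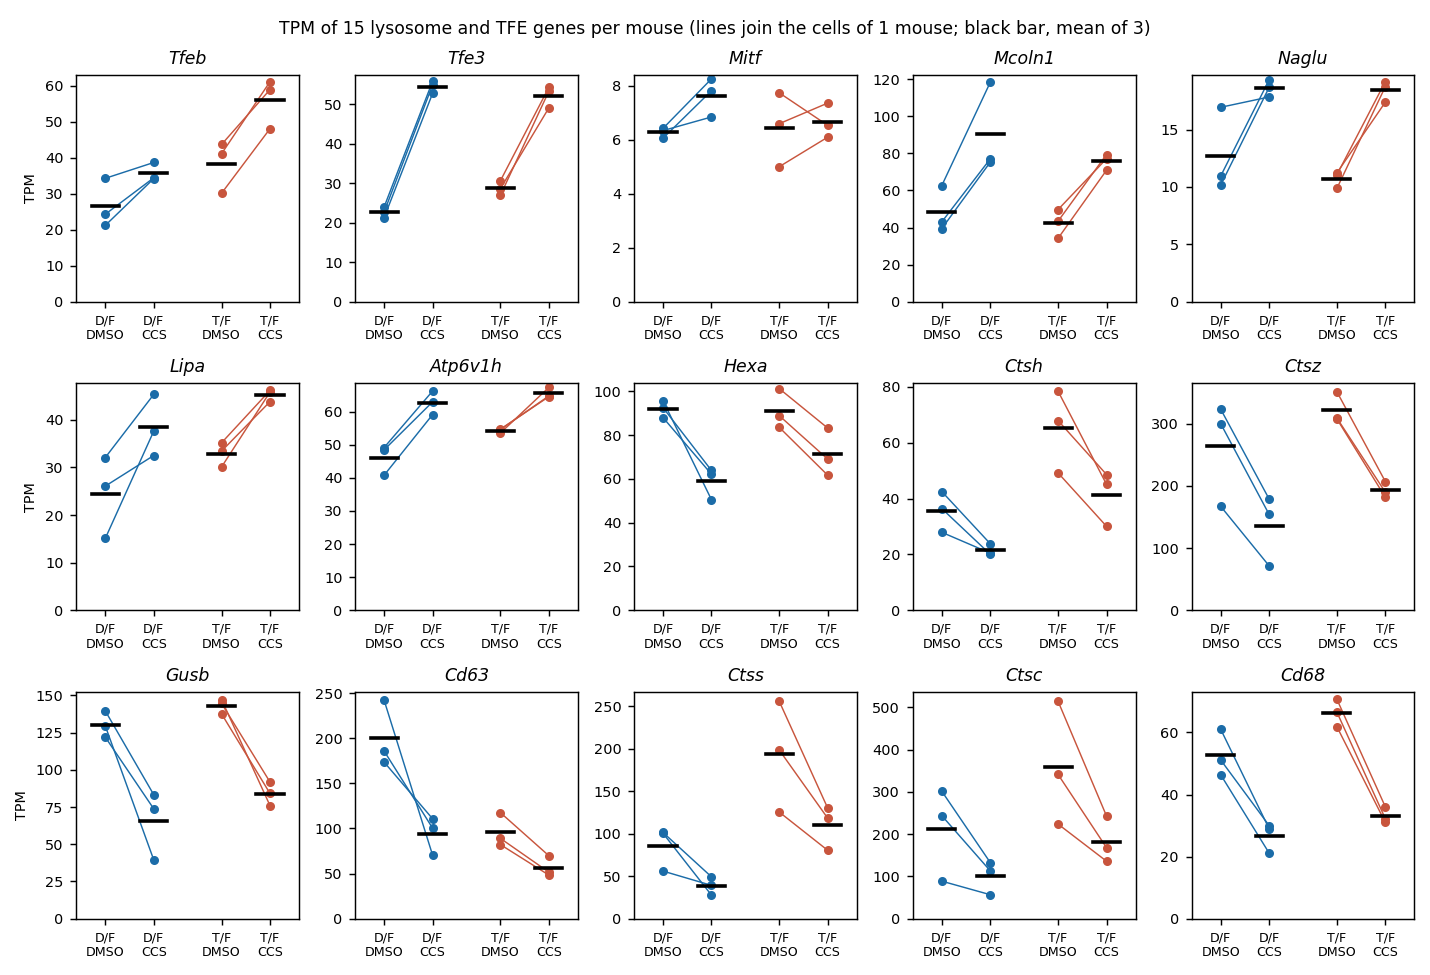
TPM (linear axes from 0) of the 3 TFE factors and 12 further lysosomal genes in each library, by genotype and treatment. Lines join the DMSO and CCS1477 cells of 1 mouse and black bars are means of 3; *Tfe3* rises from 21.3 to 30.6 TPM with DMSO to 49.0 to 55.8 TPM with CCS1477, and each line of *Cd68* falls.

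Of the 4 V-ATPase genes, 3 rose by small amounts over both genotypes, against 25.8% of all genes, and 1 (*Atp6v1a*) was not called. *Atp6v1h*, a regulatory subunit of the cytosolic sector, was at 48.5, 40.8 and 49.2 TPM with DMSO and at 63.0, 59.2 and 66.3 TPM with CCS1477 in *D/F*. In *T/F* it was at 54.7, 53.6 and 54.6 TPM with DMSO and at 64.6, 67.4 and 64.8 TPM with CCS1477. The groups were separate in both genotypes, although only *T/F* was called, with a log2 fold change of 0.27 ± 0.06 (adjusted p = 0.0119) beside 0.44 ± 0.15 (adjusted p = 0.107; 0.0245 with the block) in *D/F*. The *T/F* call was lost on leaving out any *T/F* mouse (adjusted p from 0.0548 to 0.115), while over both genotypes the value was 0.35 ± 0.07 (adjusted p = 0.00187). *Atp6v0d1*, which joins the membrane and cytosolic sectors and carries the 8-base E-box across its start site, changed by 0.33 ± 0.08 (adjusted p = 0.00685) over both genotypes. *Atp6ap1*, an accessory protein of pump assembly, changed by 0.19 ± 0.07 (adjusted p = 0.0308), and this call was lost when any 1 of 5 mice was left out (adjusted p from 0.06045 to 0.0993). *Atp6v1a*, the catalytic subunit, had a log2 fold change of 0.23 ± 0.16 (adjusted p = 0.27; 0.0234 with the block).

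Among the membrane proteins, *Mcoln1*, the calcium release channel of the lysosomal membrane, rose. It was at 43.0, 62.7 and 39.4 TPM with DMSO and at 77.0, 118 and 75.3 TPM with CCS1477 in *D/F*, and at 34.2, 43.4 and 49.7 TPM against 70.9, 79.4 and 77.1 TPM in *T/F*. All treated libraries lay above all DMSO libraries. The log2 fold change was 0.84 ± 0.14 (adjusted p = 0.00586) in *T/F*, 0.88 ± 0.26 (adjusted p = 0.0776; 0.00652 with the block) in *D/F* and 0.86 ± 0.15 (adjusted p = 0.000738) over both. Without *T/F* replicate 2 the *T/F* value was 0.83 (adjusted p = 0.0724).

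*Cd63*, a tetraspanin of late endosomes, lysosomes and primary granules, and *Cd68*, the macrosialin of lysosomes in macrophages, fell in both genotypes. *Cd63* (chr10:128900989-128912822) was at 186, 242 and 174 TPM with DMSO and at 100.4, 70.5 and 111 TPM with CCS1477 in *D/F*, and at 89.0, 82.2 and 118 TPM against 51.6, 48.4 and 69.8 TPM in *T/F*. The treated *D/F* libraries reached the range of the untreated *T/F* libraries. The log2 fold change was -1.10 ± 0.23 (adjusted p = 0.0337) in *D/F* and -0.76 ± 0.19 (adjusted p = 0.0228) in *T/F*. *Cd68* (chr11:69664213-69666153) was at 61.0, 46.4 and 51.1 TPM with DMSO and at 29.0, 21.2 and 30.0 TPM with CCS1477 in *D/F*, and at 61.8, 66.5 and 70.7 TPM against 31.0, 32.2 and 36.0 TPM in *T/F*. The groups were separate in both genotypes, and the within-mouse log2 ratios lay between -1.10 and -0.75. The log2 fold change was -0.97 ± 0.20 (adjusted p = 0.0314) in *D/F* and -0.98 ± 0.09 (adjusted p = 0.000836) in *T/F*. The *D/F* call of *Cd68* was lost after rescaling to the median gene (adjusted p = 0.0508). In *D/F*, both calls and that of *Tfe3* were lost without replicate 1 or 3, where 0 genes of the whole table passed. The log2 fold changes were then from -1.32 to -1.20 for *Cd63*, from -1.07 to -0.92 for *Cd68* and from 1.21 to 1.23 for *Tfe3*. In *T/F*, the call of *Cd63* was lost without replicate 1 or 2 (adjusted p = 0.1235 and 0.0947).

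The 4 structural or transport proteins *Lamp1*, *Lamp2*, *Scarb2* (the receptor that carries glucocerebrosidase) and *Npc1* (which exports cholesterol) had log2 fold changes between 0.17 and 0.28 over both genotypes, and none was called. *Lamp1* and *Lamp2*, the main glycoproteins of the lysosomal membrane, were at 204 to 308 TPM and at 117 to 187 TPM with DMSO. With the block, *Lamp1* (adjusted p = 0.0117), *Scarb2* (adjusted p = 0.0119) and *Npc1* (adjusted p = 0.00539) passed and *Lamp2* did not (adjusted p = 0.0902). *Laptm5*, a lysosomal protein of blood cells, was at 439, 734 and 404.5 TPM with DMSO and at 332, 346 and 341 TPM with CCS1477 in *D/F*, and at 492 to 584 TPM against 468 to 548 TPM in *T/F*. The *D/F* difference was largest in replicate 2, and it was not called (log2 fold change -0.58 ± 0.25, adjusted p = 0.176).

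Of the cathepsins, 4 fell over both genotypes, against 19.6% of all genes, 1 rose, against 25.8%, and 3 were not called. *Ctsc*, which activates the serine proteases of neutrophil granules, was at 302, 88.8 and 244 TPM with DMSO and at 133, 56.8 and 113 TPM with CCS1477 in *D/F*. In *T/F* it was at 341, 515 and 224 TPM with DMSO and at 168, 243 and 136 TPM with CCS1477. The groups overlapped in both genotypes because the mice differed widely at the start, yet each mouse fell. The log2 fold change was -0.95 ± 0.33 (adjusted p = 0.0355) over both genotypes, and it was not called in *D/F* (adjusted p = 0.273) or *T/F* (adjusted p = 0.0784) unless the mouse was a block (adjusted p = 0.0128 and 0.00425). The call over both genotypes was lost on leaving out any mouse except *D/F* replicate 2 (adjusted p from 0.05305 to 0.0944).

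*Ctss*, which trims the invariant chain in antigen-presenting cells, was at 55.97, 100.5 and 101 TPM with DMSO and at 39.2, 27.8 and 49.3 TPM with CCS1477 in *D/F*. In *T/F* it was at 125, 198 and 256 TPM with DMSO and at 80.4, 118 and 130.1 TPM with CCS1477. The *D/F* groups were separate, while the *T/F* groups overlapped because the highest treated library (130.1 TPM) lay above the lowest DMSO library (125 TPM). Over both genotypes its log2 fold change was -0.95 ± 0.23 (adjusted p = 0.00561). It was not called in *D/F* (adjusted p = 0.0678) or *T/F* (adjusted p = 0.0875) unless the mouse was a block (adjusted p = 0.0397 and 0.00492).

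*Ctsz*, a carboxypeptidase, was at 300.2, 167 and 324 TPM with DMSO and at 154, 71.4 and 179 TPM with CCS1477 in *D/F*, and at 308, 351 and 309 TPM against 182, 207 and 189.8 TPM in *T/F*. *Ctsh*, an aminopeptidase, was at 36.4, 42.5 and 27.9 TPM against 20.0, 23.8 and 20.4 TPM in *D/F*, and at 49.2, 78.5 and 67.9 TPM against 30.0, 45.1 and 48.6 TPM in *T/F*. In *Ctsz* the *D/F* groups overlapped by the low replicate 2, while in *Ctsh* they did not overlap in either genotype. Over both genotypes *Ctsz* changed by -0.87 ± 0.23 (adjusted p = 0.00818) and *Ctsh* by -0.67 ± 0.15 (adjusted p = 0.00411). *Ctsz* was called in *T/F* (adjusted p = 0.0018) but not in *D/F* (adjusted p = 0.164; 0.00793 with the block). *Ctsh* was not called in *D/F* (adjusted p = 0.0695) or *T/F* (adjusted p = 0.0766) unless the mouse was a block (adjusted p = 0.0186 and 0.00645).

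The exons of *Ctsb* and *Ctsz*, like those of *Lamp1*, *Npc1*, *Ctsa*, *Grn*, *Ppt1* and *Atp6v1h*, overlap an antisense gene of the table, and whether the strand was used in quantifying is not given in the sources used here.

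*Ctsb*, a widely expressed endopeptidase, moved the other way, from 51.9 to 60.9 TPM with DMSO to 66.6 to 73.1 TPM with CCS1477 in *D/F*, with *T/F* going from 69.7 to 77.9 TPM to 81.8 to 90.6 TPM. The change came to 0.29 ± 0.07 on the log2 scale (adjusted p = 0.00564) over both genotypes, and after rescaling to the median gene 0.22 (adjusted p = 0.0687). *Ctsl* was at 35.4, 13.9 and 30.5 TPM with DMSO and at 49.95, 51.3 and 49.5 TPM with CCS1477 in *D/F*, but at 38.5, 55.4 and 32.0 TPM against 43.5, 51.9 and 40.5 TPM in *T/F*. The low value of untreated *D/F* replicate 2 gave the widest difference and the widest spread, and *Ctsl* was not called with all mice (0.99 ± 0.34, adjusted p = 0.107 in *D/F*, 0.638 in *T/F*). Without that mouse the *D/F* value was smaller, at 0.58, and passed (adjusted p = 0.0409), and in the shared fit of 4 groups the adjusted p was 0.0302. *Ctsd*, the aspartic protease, fell in *T/F* alone by the threshold (log2 fold change -0.26 ± 0.07, adjusted p = 0.0274), a call lost on leaving out any *T/F* mouse (adjusted p from 0.09255 to 0.153), and *D/F* had -0.27 ± 0.26 (adjusted p = 0.521). The difference between these responses was 0.01 on the log2 scale (SE 0.27). *Ctsa*, the partner of neuraminidase 1, had a log2 fold change of -0.11 ± 0.08 (adjusted p = 0.294) over both genotypes.

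The 9 glycan hydrolases divided, with *Gusb* and *Hexa* called lower and *Naglu* and *Man2b1* called higher over both genotypes. Of all genes, 19.6% were called lower and 25.8% higher. *Gusb*, the β-glucuronidase, was at 122, 129 and 139.5 TPM with DMSO and at 73.8, 39.5 and 83.3 TPM with CCS1477 in *D/F*, and at 138, 145 and 147 TPM against 84.1, 91.8 and 76.0 TPM in *T/F*. The groups were separate in both genotypes, with a log2 fold change of -0.77 ± 0.09 (adjusted p = 0.00162) in *T/F* and -1.05 ± 0.29 (adjusted p = 0.0659; 0.032 with the block) in *D/F*. *Hexa*, the α subunit of β-hexosaminidase, was at 92.6, 95.8 and 88.0 TPM against 63.9, 50.5 and 62.1 TPM in *D/F*, and at 88.9, 101 and 83.6 TPM against 69.0, 83.2 and 61.7 TPM in *T/F*. The groups were separate here too, and *Hexa* changed by -0.50 ± 0.10 (adjusted p = 0.00211) over both genotypes. It was called in *D/F* (-0.64 ± 0.16, adjusted p = 0.0465), though not without replicate 1 (adjusted p = 0.298) or 3 (adjusted p = 0.315), at a pseudocount of 0.1 (adjusted p = 0.0537) or after rescaling to the median gene (adjusted p = 0.0619). With replicate 1 or 3 left out, 0 genes of the whole table passed in *D/F*.

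*Naglu*, which removes N-acetylglucosamine from heparan sulfate, was at 10.9, 16.95 and 10.2 TPM with DMSO and at 19.3, 17.9 and 18.7 TPM with CCS1477 in *D/F*. In *T/F* it was at 11.1, 9.88 and 11.2 TPM with DMSO and at 19.2, 18.8 and 17.4 TPM with CCS1477. Treated libraries of both genotypes lay within 17.4 to 19.3 TPM, and *D/F* replicate 2 was already at 16.95 TPM with DMSO. Its log2 fold change was 0.73 ± 0.08 (adjusted p = 0.00127) in *T/F* and 0.55 ± 0.21 (adjusted p = 0.142) in *D/F*.

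*Sgsh*, the sulfamidase of the same heparan sulfate pathway, showed the same mouse standing apart. It was at 5.05, 20.7 and 3.45 TPM with DMSO and at 7.99, 14.5 and 7.15 TPM with CCS1477 in *D/F*, and at 5.68, 4.17 and 6.68 TPM against 12.6, 14.3 and 13.5 TPM in *T/F*. In *D/F* replicate 2 it fell while it rose in the other 5 mice. The log2 fold change was 1.17 ± 0.15 (adjusted p = 0.00244) in *T/F* and 0.32 ± 0.61 (adjusted p = 0.771) in *D/F*, and over both genotypes it was 0.74 (adjusted p = 0.11; 0.029 with the block) with all mice and 0.99 (adjusted p = 0.000292) without *D/F* replicate 2.

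*Man2b1*, the α-mannosidase, changed by 0.29 ± 0.09 (adjusted p = 0.0192) over both genotypes, a call lost without *D/F* replicate 1 (adjusted p = 0.0643), *T/F* replicate 1 (adjusted p = 0.0546) or *T/F* replicate 2 (adjusted p = 0.0703). *Gaa* (acid α-glucosidase), *Gla* (α-galactosidase A), *Glb1* (β-galactosidase) and *Neu1* (sialidase) had log2 fold changes from -0.24 to 0.13 over both genotypes and were not called. In *D/F*, *Neu1* differed between mice more than between treatments, at 56.7, 28.5 and 62.6 TPM with DMSO and at 58.6, 33.2 and 50.2 TPM with CCS1477. In *T/F* it fell in each mouse, from 53.2, 53.1 and 34.1 TPM to 34.4, 38.5 and 32.7 TPM. It was not called there with all mice (adjusted p = 0.158), but was without replicate 3 (log2 fold change -0.54, adjusted p = 0.0226).

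Of the 7 lipid-handling and other lumenal genes, *Lipa* and *Tpp1* were called higher over both genotypes and 0 lower, against 25.8% and 19.6% of all genes. *Lipa*, the acid lipase that hydrolyzes cholesteryl esters, was at 26.1, 32.1 and 15.1 TPM with DMSO and at 32.5, 45.3 and 37.6 TPM with CCS1477 in *D/F*, and at 35.2, 33.4 and 30.1 TPM against 46.2, 43.8 and 45.8 TPM in *T/F*. The groups were separate in both genotypes, and the log2 fold change was 0.69 ± 0.30 (adjusted p = 0.178) in *D/F* and 0.45 ± 0.08 (adjusted p = 0.00586) in *T/F*, where the adjusted p was 0.0599 without replicate 2. *Tpp1*, a tripeptidyl peptidase, changed by 0.35 ± 0.10 (adjusted p = 0.017) over both genotypes, which was lost without *T/F* replicate 1 (adjusted p = 0.0639) or 2 (adjusted p = 0.0525).

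*Npc2* (which passes cholesterol to NPC1) and *Asah1* (acid ceramidase) had log2 fold changes of 0.28 ± 0.12 (adjusted p = 0.0788; 0.00695 with the block) and 0.25 ± 0.18 (adjusted p = 0.291; 0.00889 with the block). *Grn* (progranulin) and *Ppt1* (palmitoyl-protein thioesterase) were at 89.3 to 143 TPM and at 61.6 to 83.1 TPM with DMSO, and neither was called. *Psap*, the precursor of the saposins that present sphingolipids to their hydrolases, was the most abundant of the 39 genes by its DMSO levels in *T/F*. It was at 461, 313 and 286 TPM with DMSO and at 448, 312 and 327 TPM with CCS1477 in *D/F*, and at 616, 827 and 644 TPM against 555, 705 and 615 TPM in *T/F*. Its log2 fold change with CCS1477 was -0.05 (95% interval from -0.37 to 0.27) over both genotypes.

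Within mice, 17 of the 39 genes were higher with CCS1477 in all 6 mice, against 31.8% of all genes, 11 were lower in all 6, against 24.2%, and 11 went both ways. Any gene that moves the same way in all 6 mice gets p = 0.031 from the exact sign-flip test (two-sided, unadjusted), the smallest it can give. For these 28 genes that value therefore follows from their definition and adds nothing to the counts. The genes that went both ways were *Ctsa*, *Ctsl*, *Gaa*, *Glb1*, *Neu1*, *Sgsh*, *Psap*, *Grn*, *Ppt1*, *Atp6v1a* and *Mitf*. The *D/F* groups did not overlap for 11 higher and 8 lower genes (19.9% and 16.7% of all genes), and the *T/F* groups for 14 higher and 8 lower genes (33.5% and 22.6%). The largest single ratios belonged to *D/F* replicate 2, with log2 ratios of -1.82 for *Ctss*, -1.77 for *Cd63*, -1.69 for *Gusb* and 1.81 for *Ctsl*.

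**Figure D4:**
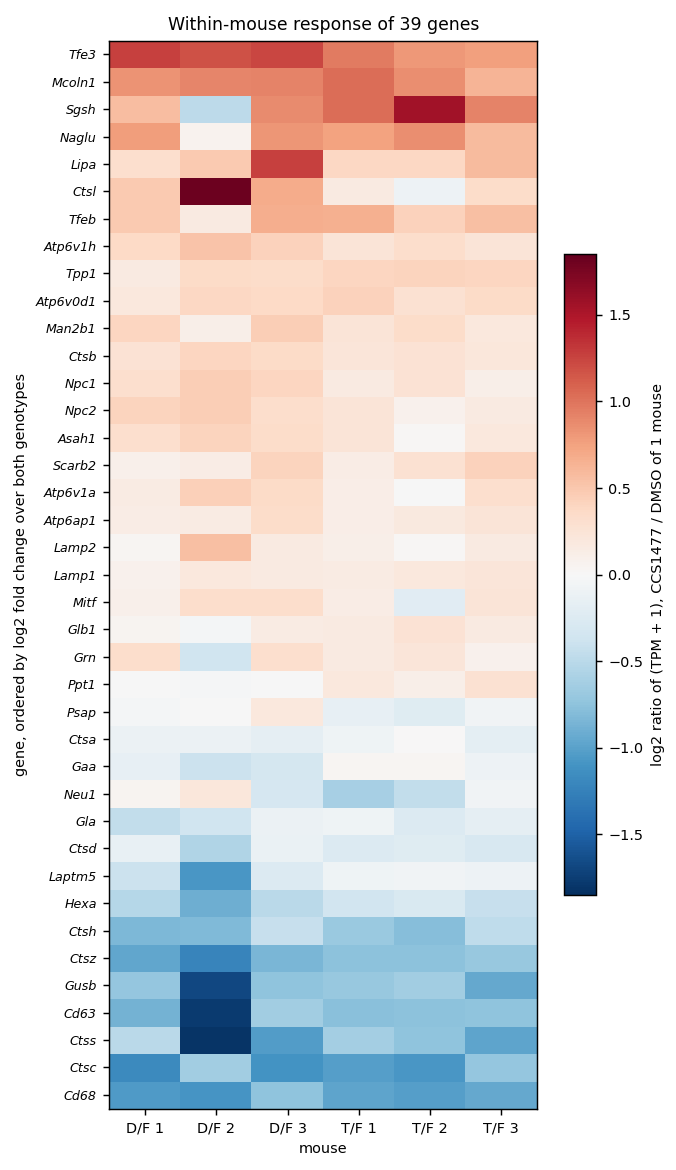
Log2 ratio of (TPM + 1), CCS1477 against DMSO, within each of the 6 mice for the 39 genes, ordered by their log2 fold change over both genotypes. Red is higher and blue lower with CCS1477; 17 rows are red and 11 blue in all 6 mice, and the deepest blue cells lie in *D/F* replicate 2.

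The response to CCS1477 was next compared between the genotypes, which differ in dose as well. The interaction test called 0 of the 39 genes and 0 of all 15583 genes (0%) in limma, with 1 of the 39 and 4.23% of all genes at an unadjusted p under 0.05, or 4 of the 39 and 14.7% with the mouse as a block. That gene was *Tfe3*, whose response in *T/F* minus that in *D/F* was -0.39 on the log2 scale (95% interval from -0.68 to -0.10; adjusted p = 1.00). *Ctsl* had a difference of -0.86 (95% interval from -1.81 to 0.10) and *Sgsh* of 0.85 (95% interval from -0.69 to 2.39), so for these genes the spread between mice leaves differences of more than 1 log2 unit within the interval. The sign of the fold change was the same in both genotypes for 37 of the 39 genes, the exceptions being *Psap* and *Ppt1*.

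In the DMSO libraries, 0 of the 39 genes passed the comparison of *T/F* with *D/F* in limma, against 0.0328% of all genes, and 8 passed at an unadjusted p under 0.05, against 6.15%. *T/F* lay above *D/F* without overlap in 9 genes (*Cd68*, *Ctsa*, *Ctsb*, *Ctsh*, *Ctss*, *Psap*, *Grn*, *Atp6v1h* and *Tfe3*), against 5.17% of all genes, and below it in 2 (*Cd63* and *Gaa*), against 7.42%. *Psap* had a mean of 353 ± 94.5 TPM over the *D/F* mice and of 696 ± 114 TPM over the *T/F* mice (SD of 3), which differ on the log2 scale by 0.99 ± 0.22 (SE; adjusted p = 0.462 from limma). The means of *Cd63* were 200.5 ± 36.5 TPM for *D/F* against 96.3 ± 18.8 TPM for *T/F* (SD of 3), with a difference of -1.05 ± 0.20 (adjusted p = 0.374 from limma). All 8 cathepsins had a higher mean log2 level in *T/F*, by 0.07 (*Ctsd*) to 1.15 (*Ctss*, SE 0.34). In the same comparison 8 of 10 macrophage markers were higher in *T/F*, with a median log2 difference of 0.48 and 3 at an unadjusted p under 0.05, and their part in the difference was not tested. None of these differences passed the adjustment over all genes.

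Across the list, the untreated libraries of *D/F* mice varied more than those of *T/F* mice. The highest DMSO library exceeded the lowest by a median of 1.41 times in *D/F* and 1.20 times in *T/F*, beside 1.41 and 1.17 times for all genes of at least 5 TPM. The 39 genes were abundant, with a median DMSO level of 60.9 TPM against 17.7 TPM for all genes tested, and 35 of them lay above the median gene. Their summed level ranged from 3394 to 5313 TPM over the 12 libraries. The 8 cathepsins summed to 975.5 to 1154 TPM with DMSO and 677 to 803 TPM with CCS1477 in *D/F*, and to 1356 to 1721 TPM and 957 to 1162 TPM in *T/F*. By contrast, the 4 V-ATPase genes summed to 318 to 382 TPM and 403 to 436 TPM in *D/F*, and to 353 to 429 TPM and 432 to 487 TPM in *T/F*.

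Markers of several cell types were read in the same libraries, among them progenitor markers of the kind of cell that the Kit beads select. Of 10 macrophage markers in the table, 8 were called lower and 0 higher over both genotypes, against 19.6% and 25.8% of all genes. Their summed level was 49.9 to 83.2 TPM with DMSO and 16.0 to 21.98 TPM with CCS1477 in *D/F*, and 69.8 to 127 TPM against 21.6 to 36.6 TPM in *T/F*. *C1qa* is not listed in the table, and the defining marker *Adgre1* was at 5.67 to 20.5 TPM with DMSO and 1.95 to 8.89 TPM with CCS1477. Progenitor markers (8 genes, among them *Kit*, *Mpo* and *Elane*) had log2 fold changes below 0 in all 8, beside 6820 of all 15583 genes. Of the 8, 7 were called lower over both genotypes, against 19.6% of all genes. They summed to 4031 to 10352 TPM with DMSO and 882 to 4338 TPM with CCS1477 in *D/F*, and to 4403 to 6624 TPM against 1756 to 3085 TPM in *T/F*. Of 10 neutrophil markers, 3 were called lower and 0 higher over both genotypes, against 19.6% and 25.8% of all genes. With the block 6 were called lower, against 25.9% of all genes. *Camp*, *Mmp8*, *Mmp9*, *Retnlg*, *Ly6g* and *Cxcr2* were lower in each of the 6 mice, as were 24.2% of all genes. The others, *Ltf*, *Ngp*, *S100a8* and *S100a9*, went both ways over the mice, and *Ltf* and *Ngp* rose in each *T/F* mouse. In *T/F* with the block, 6 neutrophil markers were called lower and 1 higher, against 22.9% and 31.2% of all genes. The neutrophil markers summed to 2749 to 9514 TPM and 1672 to 9384 TPM in *D/F*, and to 2382 to 7239 TPM and 2532 to 6952 TPM in *T/F*. The lymphoid markers *Cd79b* and *Cd3d* summed to 11.1 to 37.7 TPM and 5 erythroid markers to 10.9 to 25.7 TPM over the 12 libraries. The part of any of these cell types in the falls of *Cd63*, *Cd68*, *Gusb*, *Hexa* and the cathepsins was not tested.

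Beyond the 39 genes, 96 of 99 further lysosomal genes were in the table, and 39 of them were called higher and 9 lower over both genotypes, beside 45.3% of all genes called in either direction. *D/F* alone had 6 higher and 4 lower (10.4%, against 11.6% of all genes), or 29 and 9 with the mouse as a block (39.6%, against 39.3%). In *T/F*, 36 were higher and 10 lower of 95 tested (48.4%), against 25.8%, 17.6% and 43.4% of all genes. The other V-ATPase genes had 7 of 12 higher and 0 lower over both genotypes, against 25.8% and 19.6% of all genes. *Atp6v0b*, a membrane-sector subunit, was at 143 to 158 TPM with DMSO and 235 to 271 TPM with CCS1477 in *D/F* (log2 fold change 0.73 ± 0.14, adjusted p = 0.0279) and at 157 to 176 TPM against 239 to 287 TPM in *T/F* (0.65 ± 0.09, adjusted p = 0.00297). *Atp6v1b2*, a nucleotide-binding subunit, changed by 0.79 ± 0.15 (adjusted p = 0.0279) in *D/F* and 0.55 ± 0.11 (adjusted p = 0.0113) in *T/F*.

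The other hydrolases had 9 of 24 higher and 2 lower over both genotypes, against 25.8% and 19.6% of all genes. *Fuca1*, the α-fucosidase, was at 43.2 to 77.4 TPM with DMSO and 108 to 123 TPM with CCS1477 in *D/F*, and at 55.8 to 60.2 TPM against 105 to 117 TPM in *T/F*. *Pla2g15*, a lysosomal phospholipase, fell from 25.3 to 28.6 TPM to 11.7 to 14.1 TPM in *D/F*, with *T/F* going from 25.1 to 30.4 TPM to 14.3 to 18.4 TPM. Both were called in both genotypes. The other membrane and transport genes had 9 of 18 higher and 0 lower, against the same shares of all genes. *Ostm1*, the partner of the chloride transporter CLCN7, rose by 0.85 ± 0.14 (adjusted p = 0.0189) in *D/F* and 0.73 ± 0.07 (adjusted p = 0.00103) in *T/F*.

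Genes of sorting and trafficking went both ways over both genotypes, with 6 of 20 higher and 4 lower, near the 25.8% and 19.6% of all genes. *Gnptab* and *Nagpa*, which make the mannose 6-phosphate tag of lysosomal hydrolases, both fell, with log2 fold changes of -0.74 and -1.03 over both genotypes (adjusted p = 6.93e-05 and 9.11e-05). *Igf2r*, which binds that tag, rose from 1.78 to 2.67 TPM to 3.81 to 5.82 TPM in *D/F*, with *T/F* going from 2.71 to 3.89 TPM to 4.65 to 6.28 TPM. The more abundant receptor gene *M6pr* was lower with CCS1477, at 119 to 152 TPM against 187 to 221 TPM with DMSO in *D/F*. Its treated *T/F* libraries lay at 166 to 169 TPM, below the 219 to 229 TPM of the untreated ones. *Gnptg*, whose product acts with that of *Gnptab*, was higher, at 28.8 to 47.3 TPM against 19.3 to 24.9 TPM in *D/F*. Treated *T/F* libraries held 30.1 to 35.3 TPM of it, and untreated ones 17.4 to 21.0 TPM. *Lyst*, the gene of Chediak-Higashi syndrome, had a log2 fold change of -0.92 (adjusted p = 8.17e-06).

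The genes that control TFE factors had 8 of 22 higher and 3 lower over both genotypes, against 25.8% and 19.6% of all genes. *Rraga*, a GTPase of the nutrient-sensing complex that recruits TFE factors to the lysosome, rose by 0.64 ± 0.08 on the log2 scale over both genotypes (adjusted p = 0.00011). *Tfec*, the fourth member of the TFE family and expressed in myeloid cells, went the opposite way to *Tfe3*. It was at 124, 27.2 and 102 TPM with DMSO and at 14.2, 1.81 and 13.5 TPM with CCS1477 in *D/F*, and at 101, 119.99 and 58.0 TPM against 29.2, 32.7 and 18.9 TPM in *T/F*. No treated library overlapped its DMSO group in *T/F*, and *D/F* groups were separate as well, with log2 fold changes of -1.72 ± 0.32 (adjusted p = 0.00825) in *T/F* and -3.07 ± 0.83 (adjusted p = 0.0622; 0.00429 with the block) in *D/F*.

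**Figure D5:**
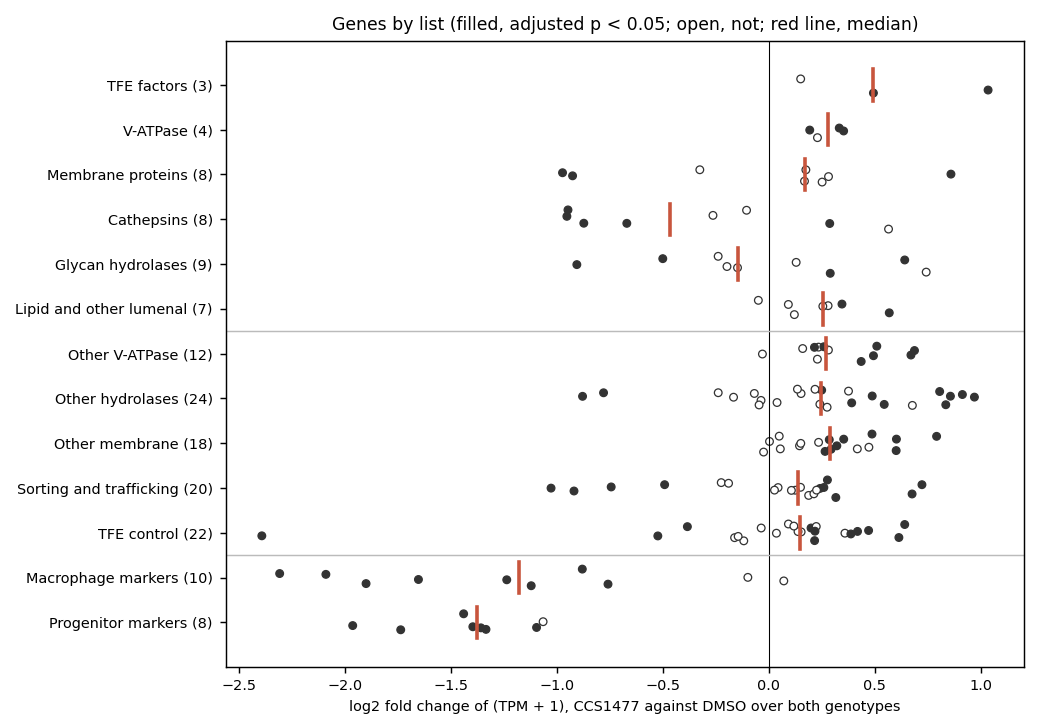
Log2 fold change of (TPM + 1) over both genotypes for the 39 genes by role (top 6 rows), for 96 other lysosomal genes (middle 5 rows) and for macrophage and progenitor markers (bottom 2 rows). Each point is a gene, filled where the adjusted p was under 0.05, red lines are medians, and the medians are -0.47 for the cathepsins and 0.28 for the V-ATPase genes.

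The promoter E-boxes were then set beside the responses. Of the 11 genes higher over both genotypes, 9 had a window and 3 of these (*Mcoln1*, *Naglu*, *Atp6v0d1*) held the core, and 2 the 8-base form. Of the 8 lower genes, 7 had a window and 0 held either. Of the 20 genes not called, 18 had a window and 9 held the core, among them *Lamp1* with its 4 copies. This division depends on the fit. With the mouse as a block, 6 of 14 higher genes held the core (adding *Lamp1*, *Sgsh* and *Atp6v1a*), 2 of 9 lower genes held it in the 8-base form (*Ctsd*, adjusted p = 0.0115, and *Gla*, adjusted p = 0.0145), and 4 of 11 genes not called held it. *Tfe3* and *Tfeb* had windows without the core. The other lysosomal genes held it in 21 of 74 windows (28.4%). Such a match, or its absence within 300 bases, says nothing about binding of a TFE factor.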

How the data were processed

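The authors quantified paired-end libraries with kallisto on mm10 (per the labels) and summarised them to genes in AltAnalyze, depositing linear TPM values. The annotation and the kallisto version are not given in the sources used here. The deposited table holds 15651 genes, with library sums of 914204 to 931697 TPM, and no counts, so the depth is unknown and no counting interval is given. The labels name both ribosome depletion and an mRNA kit.

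Genes averaging 1 TPM or more in either compared group were fitted with limma 3.58.1 (R 4.3.3) on log2(TPM + 1), two-sided, with Benjamini-Hochberg adjustment over all genes tested. The mouse was a replicate block in an alternative fit. The library names in the labels carry a mouse number, which pairs the samples. Same-mouse libraries deviated together from their group means (correlations 0.340 to 0.655, at most 0.132 between different mice). Taking deviations from a mean of 3 libraries itself lowers the correlations between different mice. P-values of the unblocked fits rest on the spread of levels between mice. With the block they rest on the spread of the within-mouse responses. By rule, values per sample are given for the TFE factors, for genes called in both genotypes and for the genes with the largest changes over both, up to 15. Values of other genes were added after they were seen. Alternatives were 0.1 as the pseudocount, filtering at 5 TPM or not at all, other scalings, a shared fit of 4 groups and leaving out mice. The fits were tested on simulated data. The genes and lists were chosen with earlier results of these data known.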

Additional observations from a re-analysis of the deposited data

Results flagged for a closer look

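*Ppt1*, the palmitoyl-protein thioesterase, was singled out because every *D/F* mouse moved below 0 and every *T/F* mouse above 0 with CCS1477. Within mice the log2 ratio averaged -0.0151 for *D/F* and 0.1992 for *T/F*. The difference between these responses was 0.21 on the log2 scale (95% interval from -0.15 to 0.57), and limma's interaction test did not call it (adjusted p = 1.00, or 0.336 with the mouse as a block).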

How the results depend on the processing

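With the mouse as a replicate block, the number of lysosomal genes called in *D/F* went from 4 to 15, and a shared fit of the 4 groups gave 15 as well (39.3% and 31.9% of all genes). The shared fit lowered the *T/F* count from 16 to 6 (24.3% of all genes). Leaving out 1 mouse gave 0 to 11 calls in *D/F*, 6 to 11 in *T/F* (6 without replicate 2) and 15 to 25 over both genotypes, while the share of all genes called ran from 0% to 24.6%, 20.9% to 33.7% and 36.3% to 55.4%. With the block and a mouse left out, chosen after seeing the data, *D/F* had 3, 12 and 0 calls without replicates 1, 2 and 3 (12.8%, 33.0% and 0% of all genes). The blocked fit changed no call of the difference between genotypes. That difference and the comparison of genotypes gave 0 calls in limma under every alternative run. Over both genotypes, *Ctsb* (adjusted p = 0.0687), *Atp6v1h* (adjusted p = 0.0555) and *Atp6ap1* (adjusted p = 0.197) were lost after rescaling to the median gene. *Ctsc* was lost under quantile normalization (adjusted p = 0.0566). With 250 bases before the start site alone, 1 rather than 2 higher genes held TCACGTGA. With calls from the blocked fit, also chosen after seeing the data, CACGTG was held by 6 rather than 3 higher and 2 rather than 0 lower genes, and TCACGTGA by 2 rather than 0 lower genes. The cause of these changes was not tested.

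No value that changed sign was called. In *D/F*, *Neu1* had a log2 fold change of 0.0076 under quantile normalization and from -0.1322 to 0.1289 with a mouse left out, *Ppt1* 0.0343 under quantile normalization, *Psap* -0.0228 to 0.0944 with a mouse left out, and *Grn* -0.0324 (without replicate 1) to 0.3177, with -0.024 without replicate 3, the same with the block. In *T/F*, *Gaa* had -0.0305 to 0.0372 with a mouse left out, and *Mitf* -0.0164 after rescaling, -0.0029 under quantile normalization and -0.038 to 0.1899 with a mouse left out. The difference of responses of *Tfeb* was -0.0285 (without *D/F* replicate 2) to 0.2196 with a mouse left out. Between genotypes, *Tfe3* had 0.33 in the DMSO libraries and -0.0616 in the CCS1477 libraries, *Mitf* had -0.1728 in the latter, and *Mitf* in DMSO had -0.0043 without *D/F* replicate 3, -0.0055 without *T/F* replicate 1 and a range from -0.1068 (without *T/F* replicate 2) to 0.1644.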
